A study of Mus musculus with 6 samples.

Results

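Glycosyltransferases that build the sugar chains of mucins and of N-glycosylated proteins were followed in organoids of the mouse small intestine, epithelial cultures that form crypt and villus regions by themselves, with and without a 24 h exposure to NIBR-LTSi. The genes were taken by symbol from the table of counts: the families Mgat, B4galt, B3galt, B3gnt, Galnt, Fut, St3gal, St6gal with St6galnac, Gcnt and C1galt1. The rule found 78 of the 24594 rows, and 1 of them, Fut4-ps1, is a pseudogene. Per the labels, the organoids came from small intestine, were raised from single cells for 96 h until crypts and villus-like regions had formed, and then received either NIBR-LTSi at 5 uM or a corresponding amount of DMSO as control. The compound inhibits the LATS kinases, which restrain the co-activators YAP and TAZ. The labels give no strain, sex or age and do not say whether the 3 libraries of each group came from separate cultures, so the tests measure the spread between these libraries only.

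Sugars are added one at a time in the Golgi, each by an enzyme that recognises the chain left by the one before. Mucin-type O-glycans start when a Galnt enzyme places N-acetylgalactosamine (GalNAc) on serine or threonine; C1galt1 or B3gnt6 then decides between core 1 and core 3, and the Gcnt enzymes branch these cores. On N-glycans the Mgat enzymes add N-acetylglucosamine (GlcNAc) branches. Both kinds of chain are extended by galactosyltransferases and B3gnt enzymes and capped with fucose (Fut) or sialic acid (St3gal, St6gal, St6galnac). In the gut these caps set the barrier properties of mucus and the ligands that microbes and lectins can bind.

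Total counts per library ranged from 18395427 to 26767043. Of the 78 genes, 48 passed the low-count filter and were tested, and 30 did not, 13 of them with no count in any library. Epithelial markers were abundant (Epcam, Cdh1, Krt8 and Krt20 summed to at least 4627 TMM-scaled CPM in each library), while Cd3e, Cdh5 and Kdr were at 0 throughout. The 5 stromal markers summed to 6.05 to 8.11 CPM with DMSO and 4.79 to 5.52 CPM with NIBR-LTSi, nearly all of it Vim, with Col1a1, Col1a2, Col3a1 and Pdgfra at 0.142 CPM or less. The leukocyte markers summed to 7.81 to 8.0 and 9.0 to 9.32 CPM, nearly all of it Itgam, and the endothelial markers to 0.601 to 0.614 and 0.219 to 0.491 CPM, all of it Pecam1. Markers of differentiated lineages also moved with treatment. The 7 enterocyte markers summed to 36360 to 37340 CPM with DMSO and 30420 to 32910 CPM with NIBR-LTSi, and the 8 goblet markers to 2651 to 3030 and 3135 to 3444 CPM. Of the goblet markers 2 rose, Clca1 and Zg16, and 6 were not called, while 4 of the enterocyte markers fell and 2 rose. What part these lineage shifts have in the results below was not tested; in bulk RNA, fewer cells of a type and less RNA per cell cannot be told apart.

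Of the called rises, 5 were steep and in scarce transcripts and 5 were shallow and in abundant ones, while the called falls were all shallow and in abundant ones. With NIBR-LTSi 10 of the 48 tested genes rose and 18 fell (edgeR quasi-likelihood test, Benjamini-Hochberg adjusted p under 0.05), and 20 were not called. Over all 12592 tested genes 42.0% were called, 22.8% higher and 19.2% lower. Of the tested members 58.3% were called; 4 of the 48 passed the filter through 1 group only (Fut1, Gcnt1 and B3gnt5 through NIBR-LTSi, B3gnt6 through DMSO), so these counts are a description. The median log2 fold change was -0.07 over the tested members and 0.02 over all tested genes. In 33 of the 48 the libraries of the groups did not overlap, as was the case for 52.5% of all tested genes.

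The called rises of at least 1.5-fold were Mgat4c, Gcnt1, Fut1, Fut2 and St3gal1, 5 of 48, against 7.08% of all tested genes. Gcnt1 and Fut1 passed the filter only through NIBR-LTSi, where they are high, so this count is a description. In the other direction edgeR called no member at least 1.5-fold lower (background 3.78%); limma-voom and DESeq2 also called none, and at an unadjusted p under 0.05 there was 1 in edgeR, 1 in limma-voom and none in DESeq2. The smallest of the 5 rises was that of St3gal1 (1.90-fold). The nearest called changes below the 1.5-fold limit were Galnt3 (1.34-fold) among the rises and Galnt11 (1.46-fold) among the falls. Past the limit but not called were B3gnt5 (1.72-fold higher, edgeR adjusted p = 0.158) and St3gal3 (1.51-fold lower, edgeR adjusted p = 0.0791). Levels between genes are compared per length, as RPKM (TMM-scaled CPM per kilobase of the deposited gene width). The 5 steep risers had DMSO levels of 0.0611 to 1.78 RPKM, with a median of 0.698, whereas the 18 genes that fell ranged from 6.60 to 597 RPKM with a median of 23.3. Without Gcnt1 and Fut1, whose low DMSO level is tied to how they passed the filter, the steep risers were at 0.698 to 1.78 RPKM. The other 5 risers, which changed by 1.11-fold to 1.34-fold, were at 10.1 to 32.1 RPKM with a median of 21.9. At low counts only a large difference can pass the test.

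**Figure D1:**
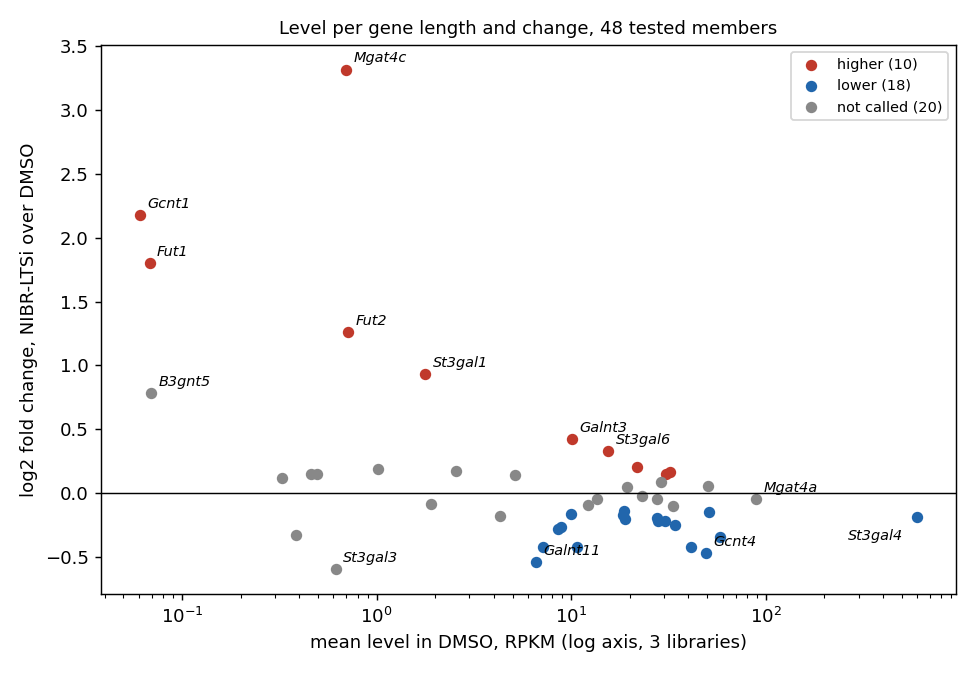
Mean level in the 3 DMSO libraries (x axis, RPKM on a log axis) against the log2 fold change of NIBR-LTSi over DMSO (y axis) for the 48 tested genes, coloured by the edgeR call at an adjusted p of 0.05. Mgat4c, Gcnt1, Fut1, Fut2 and St3gal1 lie high at the left, at 0.0611 to 1.78 RPKM, and the genes that fell lie between 6.60 and 597 RPKM with changes of less than 1.5-fold.

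**Figure D2:**
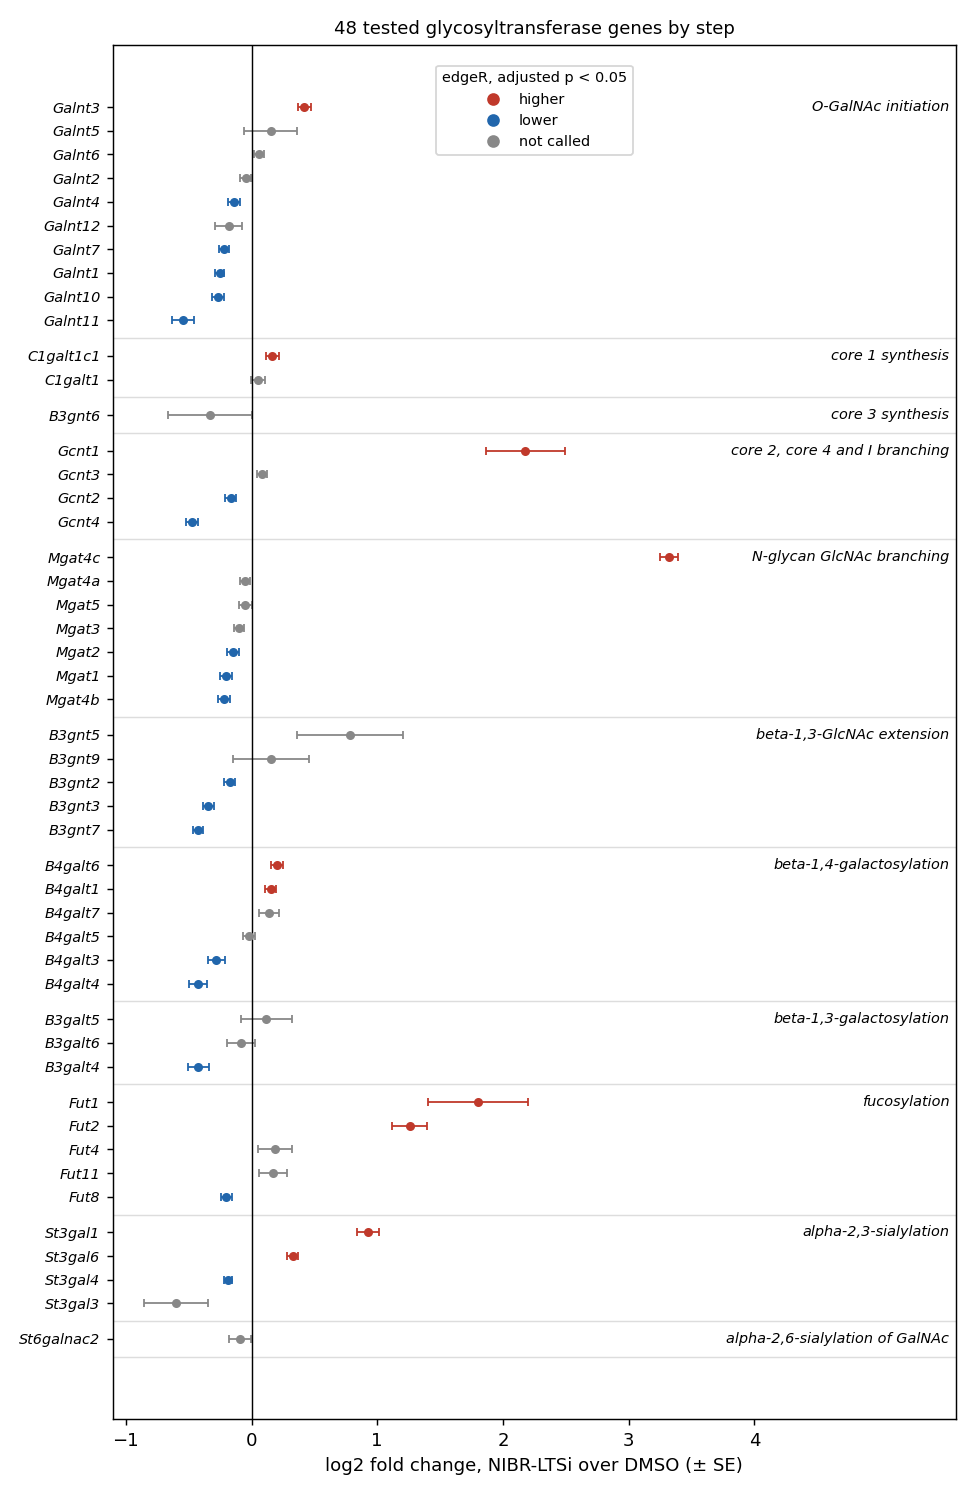
Log2 fold change of NIBR-LTSi over DMSO (x axis, bars ± SE) for each tested gene, grouped by the step of glycan synthesis it serves; red marks genes called higher, blue lower and grey not called. Each step with more than 1 tested gene and a called riser, apart from core 1 synthesis, also holds a called faller.

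The sequence in front of the tested genes was searched for fixed motifs. The risers were grouped by their call in these same libraries, and shared regulation was not tested. RefSeq promoter windows of assembly GRCm38.p6, the assembly also called mm10, were at hand for 34 of the 48 tested genes, and the 250 bases before each start were searched on both strands for GGAATG, the core letters of the TEAD motif through which YAP and TAZ act, and for TGANTCA, the AP-1 motif; no motif shares bases with the other in the windows shown. The TEAD letters were in 2 of the 12 windows of the 6 matched genes called higher and in 2 of the 24 windows of genes called lower, beside 9 of the 53 windows of all tested members and 10.9% of the 12781 windows of all tested genes. Fut2 and St3gal1 had no window. AP-1 letters were in 0 of the 12 and 1 of the 24 windows, beside 4.66%. The windows printed here lie at the outermost start of the 2 steepest risers, Mgat4c and Gcnt1, and of St3gal6, whose window holds the TEAD letters, and none overlaps an exon in GENCODE M21; the St3gal6 window is cut by 7 bases to end outside RefSeq's boundary of the gene. Each reads 5′ to 3′ on the gene's strand, and capitals mark the TEAD letters.
Mgat4c, chr10:101681237-101681486, plus strand: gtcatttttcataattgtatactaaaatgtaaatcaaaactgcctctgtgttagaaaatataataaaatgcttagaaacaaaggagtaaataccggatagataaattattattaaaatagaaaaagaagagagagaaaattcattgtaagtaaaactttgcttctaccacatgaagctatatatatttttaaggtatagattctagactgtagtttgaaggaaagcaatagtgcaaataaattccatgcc
Gcnt1, chr19:17372845-17373094, minus strand: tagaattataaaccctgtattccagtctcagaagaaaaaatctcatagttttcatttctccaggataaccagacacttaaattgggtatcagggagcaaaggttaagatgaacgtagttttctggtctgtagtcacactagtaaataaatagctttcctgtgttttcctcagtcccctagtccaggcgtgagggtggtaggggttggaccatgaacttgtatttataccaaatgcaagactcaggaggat
St3gal6, chr16:58524261-58524503, minus strand: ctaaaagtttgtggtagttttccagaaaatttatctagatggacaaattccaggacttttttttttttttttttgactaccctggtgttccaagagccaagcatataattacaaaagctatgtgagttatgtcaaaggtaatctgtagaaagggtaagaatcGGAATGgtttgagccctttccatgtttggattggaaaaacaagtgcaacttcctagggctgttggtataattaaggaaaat
In the St3gal6 window GGAATG begins 88 bases before the annotated start that the uncut window ends at. Mgat4c has 4 annotated windows and none held either motif. Gcnt1 has 3, and only the innermost (start of window 17339506, end 17339755) held the TEAD letters, beginning 186 bases before that start. The counts per gene do not show which start was used. A match is only a run of letters, and its absence says nothing of the factor.

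N-glycan branching contained the steepest change. Mgat4c (Entrez 67569; mm10 chromosome 10, 101681487 to 102391851, plus strand) encodes a relative of the enzymes Mgat4a and Mgat4b, which add a GlcNAc branch to one arm of the N-glycan core. It was at 5.09, 4.94 and 5.38 CPM in DMSO replicates 1 to 3 and at 53.5, 49.5 and 51.1 CPM in NIBR-LTSi replicates 1 to 3. Every treated library was far above every control library. The log2 fold change was 3.32 ± 0.07 (SE, n = 3 per group; edgeR adjusted p = 9.72e-11), the 14th highest of the 12592 tested genes. The nearest tested gene on the higher-coordinate side, the neurotensin gene Nts, began 89904 bases beyond it and rose as well, with means of 1.76 CPM for DMSO and 2.63 CPM for NIBR-LTSi (edgeR adjusted p = 0.0277).

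Neither of its abundant relatives was called higher. Mgat4a, the branching gene with the highest level per length, was at 635, 643 and 695 CPM with DMSO and 656, 625 and 626 CPM with NIBR-LTSi, so the groups overlapped (log2 fold change -0.05 ± 0.04, edgeR adjusted p = 0.367). Mgat4b fell 1.16-fold. In RPKM, Mgat4c made up 0.294% of the summed branching transcripts with DMSO and 3.08% with NIBR-LTSi, as the mean of 3 libraries, and Mgat4a 37.5% and 38.1%. Even after its rise, Mgat4c stood at 6.98 ± 0.28 RPKM (SD, n = 3) beside 86.2 ± 2.4 RPKM for Mgat4a.

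Mgat1, which opens the way to hybrid and complex N-glycans, fell 1.15-fold and Mgat2, which starts the second antenna, fell 1.11-fold. The Mgat2 call was lost with library totals only, with the replicate number as a block and when any 1 of DMSO replicate 2, DMSO replicate 3, NIBR-LTSi replicate 2 or NIBR-LTSi replicate 3 was left out (adjusted p from 0.0519 to 0.103). Mgat3, whose product adds the bisecting GlcNAc, was not called (log2 fold change -0.10 ± 0.04, adjusted p = 0.067). DESeq2 size factors gave it an adjusted p of 0.0435, and leaving out NIBR-LTSi replicate 1 gave 0.0356. Mgat5, which makes the branch that galectins favour, was at 132.5 to 150.6 CPM with DMSO and 132.3 to 139.6 CPM with NIBR-LTSi. Mgat4d, Mgat4e, Mgat4f and Mgat5b had at most 11 counts in all 6 libraries together and were not tested.

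**Figure D3:**
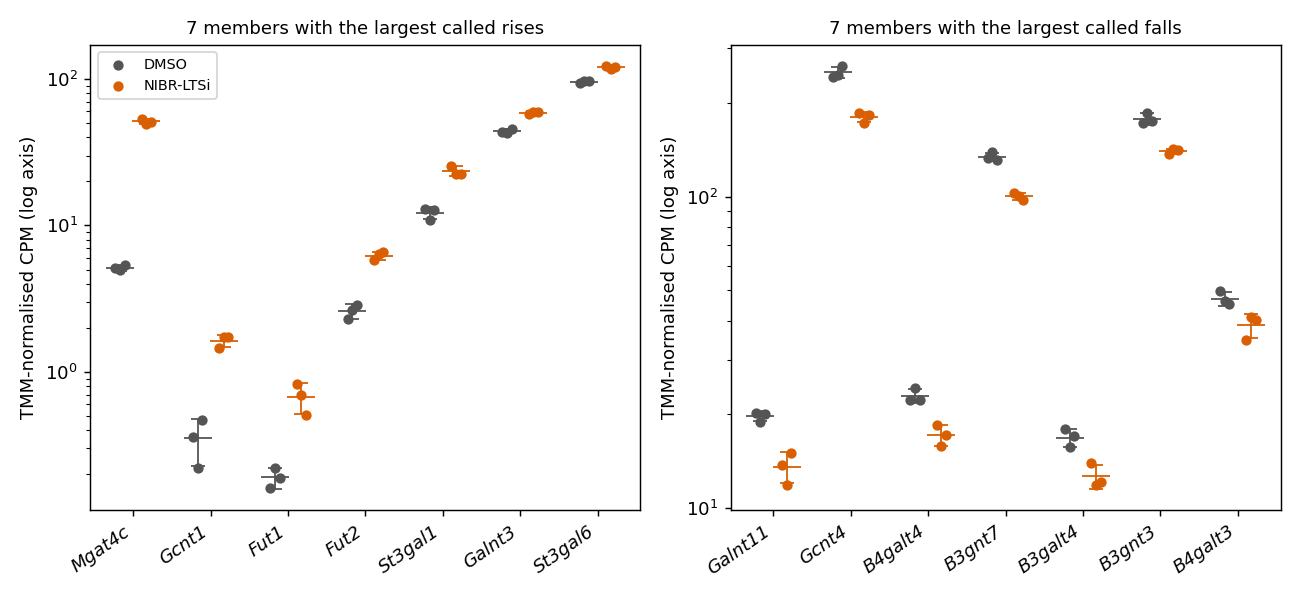
TMM-normalised CPM on a log axis in each library for the 7 genes with the largest called rises (left) and the 7 with the largest called falls (right); points are libraries, and horizontal marks with bars are mean ± SD of 3. In each of the 14 genes the NIBR-LTSi libraries lie apart from the DMSO libraries, widest for Mgat4c.

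O-GalNAc initiation was spread over several enzymes, and its members moved in small steps in both directions. Galnt6 had the highest level per length, at 50.4 ± 1.4 RPKM with DMSO. It was at 194, 190 and 201 CPM with DMSO and 201, 206 and 203 CPM with NIBR-LTSi, with a log2 fold change of 0.06 ± 0.04 (edgeR adjusted p = 0.245; 0.0466 with library totals only). The groups met, since DMSO replicate 3 lay at the level of NIBR-LTSi replicate 1.

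Galnt3, known for the O-glycan that protects the hormone FGF23, was the only initiating gene called higher: it went from 43.2, 43.0 and 45.8 CPM to 57.7, 59.2 and 59.8 CPM (log2 fold change 0.42 ± 0.05, adjusted p = 2.78e-05). All treated libraries were above all controls. Of the 10 tested Galnt genes 5 fell and 1 rose, beside 19.2% lower and 22.8% higher over all tested genes. Galnt11 fell 1.46-fold, from 20.3, 18.9 and 20.1 to 13.8, 11.9 and 15.0 CPM (log2 fold change -0.54 ± 0.09, adjusted p = 3.89e-04). Galnt1, a broadly acting initiator, fell 1.19-fold, and Galnt10, Galnt7 and Galnt4, which prefer peptides that already carry GalNAc, fell 1.20-fold, 1.17-fold and 1.10-fold.

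The Galnt4 call was lost with library totals only and in the fits that left out NIBR-LTSi replicate 2 or either DMSO replicate 2 or DMSO replicate 3 (adjusted p from 0.0608 to 0.0965). Galnt4 also shares 420 exonic bases with Poc1b on the same strand, so reads there cannot be assigned with certainty. The share of summed initiating RPKM held by Galnt3 was 5.31% with DMSO and 7.54% with NIBR-LTSi, and that of Galnt1 was 18.2% and 16.1%. Galnt2, Galnt5 and Galnt12 were not called. Galnt2 shares 3854 exonic bases with the coding gene Gm20388 on the same strand, so its reads are uncertain too. The remaining 7 Galnt genes (Galnt9 and Galnt13 to Galnt18) had at most 9 counts in all libraries together, and 4 of them had none.

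Core 1 synthesis was abundant and core 3 synthesis was not. C1galt1c1, on chromosome X, encodes the chaperone without which the core 1 enzyme does not fold; it went from 45.3, 49.0 and 45.4 CPM to 52.3, 50.5 and 53.5 CPM. The lowest treated library lay just above the highest control. The log2 fold change was 0.16 ± 0.05 (edgeR adjusted p = 0.0243), and the call was lost in DESeq2 and when any library other than DMSO replicate 2 was left out (adjusted p from 0.0505 to 0.116).

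The enzyme gene itself, C1galt1, was at 110 to 127 CPM with DMSO and 120 to 123 CPM with NIBR-LTSi. B3gnt6, the core 3 synthase gene, was at 0.881, 0.778 and 1.09 CPM with DMSO and 0.413, 0.777 and 0.951 CPM with NIBR-LTSi (adjusted p = 0.462), levels that overlapped. In DMSO its level was 0.386 RPKM, beside 19.3 RPKM for C1galt1.

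Core branching changed in its balance. Gcnt4, a core 2 branching enzyme, had the highest level per length and fell from 243, 246 and 263 to 186, 173 and 183 CPM. All treated libraries were below all controls (log2 fold change -0.47 ± 0.04, edgeR adjusted p = 5.21e-06). Gcnt3, the mucin-type enzyme that can make core 2 and core 4, was at 124 to 126 CPM with DMSO and 130 to 134 CPM with NIBR-LTSi (adjusted p = 0.094, and 0.013 with library totals only).

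Within the summed RPKM of the branching genes, Gcnt4 took 55.8% with DMSO and 47.1% with NIBR-LTSi, and Gcnt3 32.8% and 40.8%. Gcnt2, which places the branches of the I blood group antigen, fell 1.12-fold. Gcnt1 (Entrez 14537; chromosome 19, 17326141 to 17372844, minus strand), the core 2 enzyme best known from leukocytes, rose from 0.360, 0.222 and 0.472 CPM to 1.45, 1.72 and 1.72 CPM. These levels rest on 4 to 10 counts per control library and 28 to 47 per treated library, which did not overlap. The log2 fold change was 2.18 ± 0.31 (adjusted p = 1.61e-04). The nearest tested genes on either side of Gcnt1, Vps13a and Rfk, were not called (edgeR adjusted p = 0.617 and 0.757). Of the leukocyte markers, Ptprc was at 0.0945 CPM or less in every library, Cd3e was at 0, and Itgam was at 7.81 to 8.0 CPM with DMSO and 8.96 to 9.32 CPM with NIBR-LTSi (adjusted p = 0.072).

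**Figure D4:**
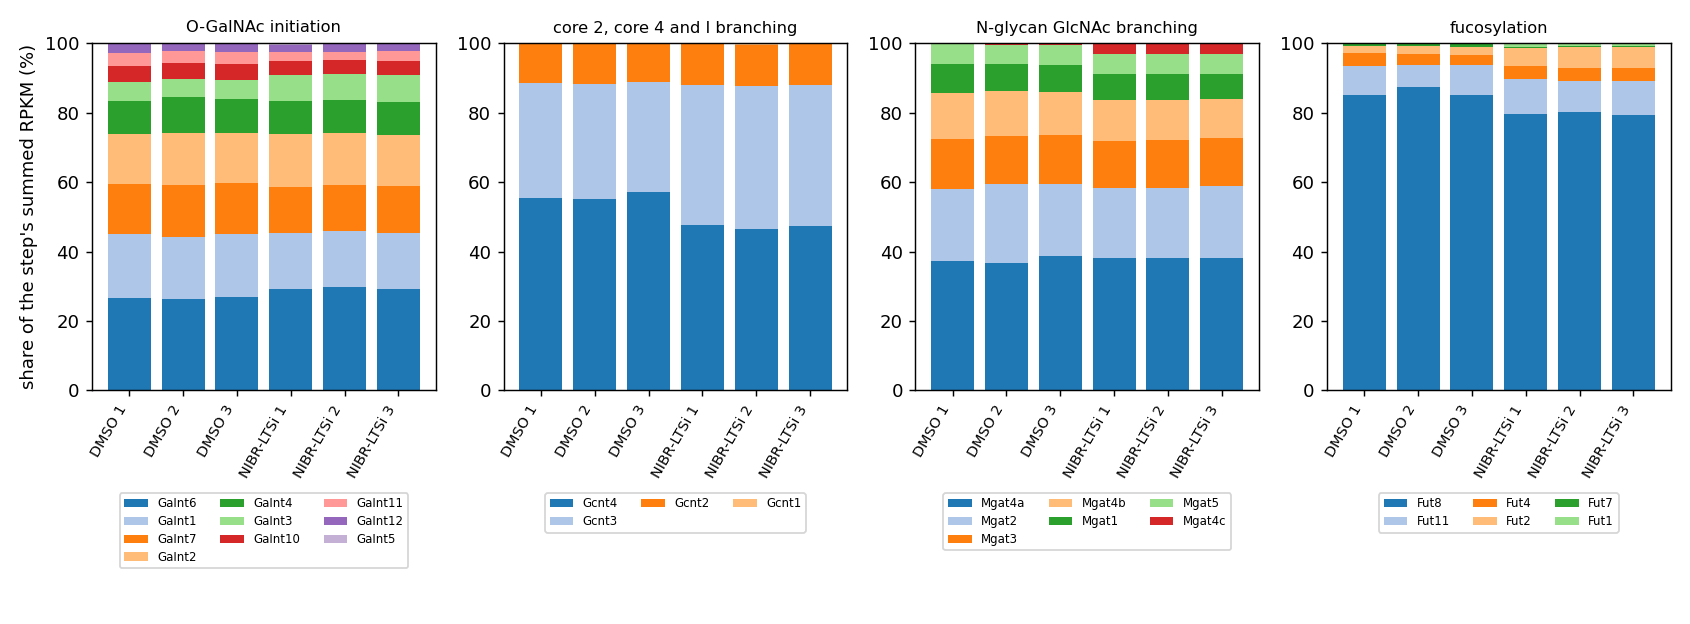
Share of each gene in the summed RPKM of its step (y axis, percent) in each of the 6 libraries, for 4 steps; genes that reached 0.2% on average in at least 1 group are drawn. Gcnt4 narrows from 55.8% to 47.1% of core branching, Fut8 from 85.8% to 79.7% of fucosylation, and Mgat4c widens from 0.294% to 3.08% of N-glycan branching.

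Chain extension by B3gnt enzymes fell in its 3 main genes, which is 3 of 5 tested, beside 19.2% of all tested genes. B3gnt3, which extends core 1 and had the highest level of the step per length, fell from 173, 186 and 175 CPM to 137, 142 and 141 CPM (log2 fold change -0.34 ± 0.04, edgeR adjusted p = 4.57e-05). No treated library reached the lowest control. B3gnt7, which acts in keratan sulfate synthesis, fell 1.34-fold, and B3gnt2, the main maker of poly-N-acetyllactosamine, fell 1.13-fold. The summed RPKM of the 7 B3gnt genes other than B3gnt6 was 116 to 123 in the DMSO libraries and 92.5 to 94.7 in the NIBR-LTSi libraries.

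B3gnt5, which starts lacto-series glycolipids, was at 0.160 to 0.5 CPM with DMSO and 0.512 to 0.696 CPM with NIBR-LTSi; it was not called (adjusted p = 0.158). B3gnt9 was not called either, and its sign turned without NIBR-LTSi replicate 2. B3gnt4 and B3gnt8 had at most 10 counts in all. B3gnt2 overlaps the coding gene Gm28048 over 2449 exonic bases of the same strand, which leaves its reads uncertain.

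Among the 6 tested B4galt genes 2 rose and 2 fell, beside 22.8% higher and 19.2% lower over all tested genes. B4galt1, the general galactosyltransferase that also forms lactose synthase, was at 126, 129 and 134 CPM with DMSO and 149, 142 and 142 CPM with NIBR-LTSi. It had the highest level of its step per length, and its treated libraries lay above its controls (log2 fold change 0.15 ± 0.04, edgeR adjusted p = 0.0133). That call was lost on leaving out DMSO replicate 1 or either of NIBR-LTSi replicates 1 and 2 (adjusted p from 0.0552 to 0.0732).

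B4galt6, a lactosylceramide synthase gene, rose 1.15-fold, whereas B4galt5, with the same activity, was at 94.5 to 102 CPM and 95.3 to 99.7 CPM. B4galt4 fell 1.34-fold and B4galt3 fell 1.21-fold; B4galt3 overlaps Ppox over 791 exonic bases of the opposite strand. B4galt7, which builds the proteoglycan linker, was not called, and B4galt2 had 43 counts in all. In the B3galt family 1 of 3 tested genes fell, beside 19.2% of all tested genes. This was B3galt4, which completes the chain of the ganglioside GM1 and had the highest level of the family per length. It went from 17.9, 15.7 and 17 CPM to 13.9, 11.9 and 12.1 CPM. The groups did not overlap (log2 fold change -0.42 ± 0.09, adjusted p = 0.0019). B3galt5, the maker of type 1 chains, and B3galt6, a proteoglycan linker enzyme, were not called.

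In fucosylation the core enzyme gene Fut8 fell and the alpha-1,2 enzyme genes Fut1 and Fut2 rose, while the other tested Fut genes were not called. Fut8, the only core fucosyltransferase of N-glycans and the most abundant Fut gene per length, fell from 210, 227 and 218 CPM to 196, 187 and 188 CPM (log2 fold change -0.20 ± 0.04, edgeR adjusted p = 0.0022). The highest treated library was below the lowest control. Both enzymes that add fucose in the alpha-1,2 linkage of the H antigen went the other way. Fut2, the secretor gene of the gut, rose from 2.28, 2.67 and 2.88 CPM to 5.78, 6.34 and 6.54 CPM, and all treated libraries were far above all controls (log2 fold change 1.26 ± 0.14, adjusted p = 2.03e-05). Fut1 rose from 0.160, 0.222 and 0.189 CPM, which is 4 counts in each control library, to 0.826, 0.696 and 0.512 CPM, from 16, 17 and 14 counts (log2 fold change 1.80 ± 0.40, adjusted p = 0.00321).

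Fut1 and Fut2 are neighbours on chromosome 7, at 45617606 to 45621059 on the plus strand and 45648591 to 45666394 on the minus strand, 27531 bases apart. The 4 genes of the table that lie between them, Izumo1, Rasip1, A030001D20Rik and Mamstr, had 17, 11, 3 and 0 counts in all libraries together and were below the filter. Beyond the pair, the nearest tested genes moved in opposite directions: Bcat2, next to Fut1, rose from 18.9 CPM on average to 28.5 CPM (0.60 ± 0.06 on the log2 scale, edgeR adjusted p = 1.17e-05), and Dbp, next to Fut2, fell from 90.9 to 64.5 CPM (-0.49 ± 0.04, adjusted p = 3.99e-06). Fut4, which makes Lewis-type structures, and Fut11 were not called. Fut7, the leukocyte enzyme of sialyl Lewis X, was not tested; it had 12, 8 and 12 counts with DMSO and 5, 5 and 5 with NIBR-LTSi. Fut10 had 15 counts in all, and Fut9 and Fut4-ps1 had none.

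Transcripts for alpha-2,3-sialylation came almost wholly from St3gal4, the most abundant gene of all 78. Its product sialylates lactosamine chains of N- and O-glycans. It was at 1750, 1763 and 1723 CPM with DMSO and 1534, 1540 and 1534 CPM with NIBR-LTSi, a narrow but complete separation (log2 fold change -0.18 ± 0.03, edgeR adjusted p = 4.37e-04). At 597 RPKM it ranked 64th of all tested genes in DMSO, and it held 97.1% of the step's RPKM with DMSO and 95.7% with NIBR-LTSi. St3gal6, an enzyme of like specificity, rose 1.25-fold, from 95.8 ± 1.2 to 120 ± 3 CPM (SD, n = 3), and it shares 1603 exonic bases with Dcbld2 on the opposite strand. Reads of that overlap could be told apart only if the counting used strand, which is not stated.

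St3gal1 (Entrez 20442; chromosome 15, 67102875 to 67176946, minus strand), which caps core 1 O-glycans, was at 13, 10.9 and 12.8 CPM with DMSO and 25.6, 22.5 and 22.3 CPM with NIBR-LTSi. The lowest treated library was well above the highest control (log2 fold change 0.93 ± 0.09, edgeR adjusted p = 5.18e-06). Of the nearest tested neighbours of St3gal1, Ndrg1 was called higher (edgeR adjusted p = 0.0179) and Zfat was not called (adjusted p = 0.902). St3gal3 was at 1.76, 1.78 and 1.61 CPM and at 1.14, 0.859 and 1.39 CPM; the groups did not overlap, but the test did not call it (log2 fold change -0.60 ± 0.25, adjusted p = 0.0791). St3gal2 and St3gal5, the GM3 synthase gene, had 10 and 15 counts in all.

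Enzymes of the alpha-2,6 linkage were scarce apart from 1. St6galnac2, which sialylates the GalNAc of O-glycans, was at 90.6, 84.4 and 84.1 CPM with DMSO and 69.7, 84.0 and 89.0 CPM with NIBR-LTSi (edgeR adjusted p = 0.424). NIBR-LTSi replicate 3 lay among the controls and NIBR-LTSi replicate 2 just below the lowest control. NIBR-LTSi replicate 1 was the lowest library. The same library had the highest value of its group for Muc2, the secreted goblet mucin, which was at 160, 154 and 177 CPM with DMSO and 159, 116 and 98.0 CPM with NIBR-LTSi. St6gal1, which caps N-glycans, had 35 counts in all libraries together, at 0.111 to 0.320 CPM with DMSO and 0.123 to 0.402 CPM with NIBR-LTSi. St6gal2 and St6galnac5 had no count, and St6galnac1, St6galnac3, St6galnac4 and St6galnac6 had 2 to 13.

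The summed level of all 78 genes was lower in each treated library. It was 5711 to 5843 CPM with DMSO and 5323 to 5432 CPM with NIBR-LTSi, a difference in means of -7.10%, and -4.19% when scaled by library totals only. Without St3gal4 the sums were 3961 to 4120 and 3783 to 3898 CPM, and on library totals alone the latter difference was -2.0%. The 5 steep risers together went from 18.9 to 21.7 CPM with DMSO to 80.8 to 87.1 CPM with NIBR-LTSi. They were chosen by their rise in these libraries, so the direction of this sum was fixed in advance. Mgat4c alone made up 51.4 of the mean 83.35 CPM with NIBR-LTSi.

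Genes that supply these enzymes were counted from companion lists. The background for every such count is 42.0% of all tested genes called, 22.8% higher and 19.2% lower. In the GDP-fucose supply list 6 of 9 tested genes fell and 1 rose, which is 77.8% called. The median log2 fold change was -0.19 beside 0.02 over all genes. Pmm1, a phosphomannomutase, fell 1.62-fold, from 27.4, 27.8 and 25.1 to 16.1, 16.2 and 17 CPM, and the groups did not overlap (edgeR adjusted p = 6.47e-06). Gmppb, which makes GDP-mannose, fell 1.27-fold, and Gmds and Gfus, the enzymes of the route from GDP-mannose to GDP-fucose, fell 1.17-fold and 1.23-fold. Fcsk, the kinase of the fucose salvage route, was the member that rose, by 1.14-fold. Fpgt, of the same salvage route, fell 1.14-fold (edgeR adjusted p = 0.0357), so the called genes of that route went both ways.

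Of 11 Golgi nucleotide-sugar transporters 5 fell (median log2 fold change -0.07), among them Slc35c2 (1.23-fold), Slc35b1 (1.26-fold), Slc35a5 (1.29-fold) and Slc35d2 (1.36-fold). In the hexosamine pathway, which makes UDP-GlcNAc, 2 of 9 tested genes rose and 2 fell. Amdhd2, a deacetylase that turns the route back, fell 1.39-fold, and Gnpda1, a deaminase, fell 1.24-fold. The risers were Uap1l1 (1.13-fold) and Uap1 (1.085-fold). The Uap1 call was lost in DESeq2 (adjusted p = 0.179) and in other alternatives. The Uap1l1 call was lost in edgeR without NIBR-LTSi replicate 2 (adjusted p = 0.0701). Of 6 genes for UDP-galactose and UDP-GalNAc 2 fell, among them Galm (1.42-fold). In CMP-sialic acid supply 1 of 5 tested genes was called: Npl, which breaks sialic acid down, rose 1.49-fold.

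In the assembly and transfer of the N-glycan precursor 5 of 27 genes rose and 2 fell, which is 25.9% called beside 42.0% of all tested genes. The fallers were Dpm3 (1.23-fold) and Dad1 (1.11-fold), and Dad1 encodes a subunit of the oligosaccharyltransferase. The oligosaccharyltransferase subunit gene Rpn1 rose 1.18-fold and the catalytic subunit gene Stt3b 1.11-fold (not called without DMSO replicate 1 or NIBR-LTSi replicate 2, adjusted p = 0.0657 and 0.0527), and the glucosyltransferase genes Alg10b and Alg8 rose 1.42-fold and 1.38-fold. Of 14 tested trimming enzymes 3 rose and 2 fell (35.7% called), with Mogs, the first glucosidase, 1.18-fold higher and the mannosidase Man1a 1.15-fold lower.

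Of the protein carriers, 5 of 9 listed mucins in the table were tested, 1 rose and 1 fell (40.0% called beside 42.0% of all tested genes). Muc1, a membrane mucin, rose from 0.761, 0.555 and 0.614 to 1.34, 1.96 and 1.90 CPM (edgeR adjusted p = 0.00149), and Muc13, the abundant membrane mucin, fell 1.10-fold. Muc2 was not called (log2 fold change -0.40 ± 0.20, adjusted p = 0.195), but without NIBR-LTSi replicate 1 it was called lower (-0.62, adjusted p = 0.00163). Muc4 was at 34.3 to 54.7 CPM with DMSO and 14.3 to 27.1 CPM with NIBR-LTSi (adjusted p = 0.0592).

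Of 11 tested genes in a list of other glycosyltransferases 3 rose and 3 fell (54.5% called, median 0.08 on the log2 scale). Ggta1, which makes the alpha-galactosyl epitope of mice, rose from 0.2, 0.278 and 0.189 CPM to 1.19, 1.31 and 1.43 CPM, without overlap (log2 fold change 2.55 ± 0.33, edgeR adjusted p = 6.29e-05). B4galnt2, which forms the Sd(a) antigen of the gut, rose 1.15-fold. B4galnt3 and B4galnt4 fell 1.5-fold and 1.38-fold. Galntl6, a Galnt-like gene whose symbol falls outside the rule used for the members, was at 0.641 to 1.13 CPM with DMSO. It fell 2.78-fold to 0.286 to 0.413 CPM with NIBR-LTSi. Ggta1 and Galntl6 each passed the low-count filter, about 0.44 CPM, only through the group where they are high, so their calls are a description. Of 5 tested sulfotransferases Chst4 rose 1.18-fold and Gal3st2 fell 1.27-fold (40.0% called beside 42.0% of all tested genes).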

How the data were processed

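The 6 libraries, 3 per group, were sequenced for mRNA. Per the labels' protocols, organoids were dissociated, RNA was purified with an RNeasy kit and 200 ng entered a stranded mRNA preparation. The authors deposited 1 table of raw read counts per gene, with Entrez identifier, symbol and gene width. Per the submitters' processing notes the build was mm10 and edgeR was used. Which aligner, counter and strand option served is not stated in what was used here, so overlapping genes are uncertain. Opposite-strand overlaps also touch members not flagged above, among them the called fallers Gcnt4 (535 exonic bases), B3gnt7 (520), St3gal4 (412) and Galnt11 (306).

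Counts were scaled by TMM factors, filtered with filterByExpr and tested with the edgeR (version 4.0.16) quasi-likelihood F-test, robust, on both sides, on treatment alone, with Benjamini-Hochberg adjustment over 12592 genes at 0.05. The SE of a log2 fold change was calculated back from the F statistic. RPKM used the deposited width, another kind of value per the file headers. The test was run on simulated data in which 200 of 12592 genes were changed, far fewer than the 42.0% called here. It recovered 69.4% of 1.5-fold, 94.4% of 2-fold and 92.5% of 4-fold changes, with 8 false calls among 180. Real changes near 1.5-fold can therefore be missed. Alternatives were limma-voom (3.58.1), DESeq2 (1.42.0), its size factors, library totals, other filters, a replicate block and leaving out each library. No 2 libraries of a group agreed within sampling noise (chi-square per degree of freedom 4.65 to 11.9). The members, the companion and marker lists and the named-gene rule were chosen with earlier results of these data known. Values per library are given for members called at 1.5-fold or more and for the highest per length in each step, and up to 4 called genes with the smallest p represent each companion list; further genes named were chosen after their values were seen. Some genes of these lists are not reported here. Of the lists not described elsewhere, Paneth markers had 2 of 6 higher and 2 lower, enteroendocrine 1 of 6 higher and 3 lower, tuft 2 of 5 lower, crypt stem 1 of 3 higher and 2 lower and epithelium 1 of 4 higher. Of the stromal, leukocyte and endothelial lists 1 gene each was tested, and only the stromal Vim was called, lower. Positions are 1-based, from RefSeq GRCm38.p6.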

Additional observations from a re-analysis of the deposited data

How the results depend on the processing

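Over the 13 alternatives, 24 of the 28 called members kept their call and direction throughout wherever they were tested; Fut1 had too few counts for the filter that asks for 1 CPM in 3 libraries. The calls of Mgat2, Galnt4, B4galt1 and C1galt1c1 were lost in at least 1, as given above, and Mgat3, Gcnt3 and Galnt6 were called in at least 1. The count of members called higher ran from 8 to 12 and of members called lower from 16 to 19; leaving out 1 library gave 8 to 10 and 16 to 19. The count over all genes ran from 4212 to 5346. No called member changed sign. The log2 fold change of 5 uncalled members turned sign. Leaving out 1 library moved it from -0.0108 to 0.2193 for B3galt5 and from -0.2167 to 0.3089 for B3gnt9, both negative without NIBR-LTSi replicate 2. It ran from -0.0561 to 0.0006 for B4galt5 (0.0231 with library totals only), positive without DMSO replicate 1. It ran from -0.0054 to 0.28 for Galnt5, negative without DMSO replicate 2, and from -0.0874 to 0.008 for Mgat5, positive without DMSO replicate 3. The cause was not tested. Whether replicate numbers pair the samples was not settled. Deviations from the group means correlated at 0.0482, -0.296 and 0.562 between same-numbered libraries, and from -0.553 to 0.528 between the others. Not every library correlated best with its own number. With 3 libraries per group such deviations cancel within the group and constrain one another, so these values cannot exclude pairing. With the replicate block 4945 genes were called, 10 members higher and 17 lower. The depth leaves 30 members untested, and changes in them were not detectable here.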

Other observations

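Enzymes and lectins that act on finished glycans also moved in both directions. Of 12 tested glycosidases 1 rose and 5 fell, which is 50.0% called beside 42.0% of all tested genes. The riser was Neu1, the lysosomal sialidase, at 58.2, 56.1 and 56.2 CPM with DMSO and 101, 103 and 103 CPM after treatment (log2 fold change 0.85 ± 0.04, edgeR adjusted p = 2.93e-08). The groups stood well apart. Fuca1, the lysosomal fucosidase, fell 1.44-fold, and Glb1, the beta-galactosidase gene, fell 1.17-fold. Of 8 tested galectins, which bind galactose-bearing chains, 4 rose and 2 fell (75.0% called). Lgals12 rose 1.61-fold and Lgals3 1.44-fold, while Lgals9, at 562 to 608 CPM with DMSO, fell 1.38-fold to 416 to 427 CPM. In the list of Golgi structure and pH genes 2 of 21 rose and 7 fell, with 42.9% called beside 42.0% of all genes; Atp6v0a2, a proton pump subunit gene, fell 1.31-fold and the manganese transporter Tmem165 fell 1.17-fold.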
